A study of Homo sapiens with 4 samples.

Results

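The HOX genes encode homeodomain transcription factors that lie in 4 clusters, HOXA, HOXB, HOXC and HOXD, and are numbered by paralogue group from 1 to 13. RefSeq (assembly GRCh38.p14) lists 39 of them. A gene was included here when the platform annotation gave a probe set with its symbol alone, and antisense genes were not counted. This held for 24 of the 39, out of 22395 genes with such a probe set in all. The members were 1 of 11 HOXA genes, 9 of 10 HOXB genes, 6 of 9 HOXC genes and 8 of 9 HOXD genes, each read by 1 probe set. HOXB6, HOXC4, HOXC5, HOXC6 and HOXD4 share their probe sets with another HOX symbol. The 10 HOXA genes other than HOXA2 are not named in the annotation used here, so they are not analysed.

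RNA was measured in MCF10A, an immortalised, non-tumorigenic human breast epithelial line grown untreated in SFIHE medium. The 4 groups were cells stably transfected with LacZ (the control, a bacterial enzyme gene), with Her2 (the receptor tyrosine kinase ERBB2), with PIK3CA-H1047R (an activated catalytic subunit of phosphoinositide 3-kinase), or with Her2 and PIK3CA-H1047R together. Each group is 1 array of 1 transfected line, so there is no SD and no test between groups, and every difference below compares 2 arrays. Values are log2 expression values, on which a difference of 1 is 2-fold, and differences are read within a gene across arrays. The limit of log2 3 and the summed marker levels used below set different genes side by side, so they are only rough guides. A value under log2 3 does not show that a transcript is absent. The study set out to find genes controlled by either introduced gene or by the pair.

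In the embryo, HOX genes are switched on along the body axis in the order in which they lie on the chromosome, low numbers first and towards the head, and adult tissues keep part of this pattern. Their proteins bind DNA together with cofactors of the PBX and MEIS families. Polycomb complexes keep HOX clusters silent by modifying histones, and trithorax-group complexes keep them active. In the breast, HOX genes take part in the growth and branching of the gland.

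The arrays had medians of 1.13 to 1.17 over all 53617 probe sets. The probe set that reads ERBB2, shared with the microRNA gene MIR4728, went against the labels: it read 5.96 on the LacZ array, 4.29 on the Her2-labelled array, 8.48 on the PIK3CA-H1047R-labelled array and 7.39 on the double-labelled array. Groups are therefore called by the label of their array throughout, the array with both labels being the double-labelled array. An exchange of labels between the 2 single-gene arrays was not tested. If there was one, each pattern given below for Her2 (as for HOXA2, HOXB2 and HOXC8) would belong to PIK3CA-H1047R and the reverse, while the double-labelled array against LacZ would be unaffected. Of 8 measured basal markers of breast epithelium, 7 were at log2 3 or above on the LacZ array; KRT14, at 1.47, was the exception. No measured adipocyte marker reached log2 3 on any array. Of the leukocyte markers CD14 and CD68 reached it and PTPRC did not, and of the endothelial markers KDR alone reached it.

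Most of the measured HOX genes gave low values in all 4 lines, with HOXA2 alone standing for the HOXA cluster. Of the 24 measured, 19 were under log2 3 on every array, which is 79.2%, against 61.8% of all 22395 genes and 53.1% of the 17062 protein-coding ones. The 5 that reached log2 3 on an array were HOXA2 and HOXB2 of paralogue group 2, HOXC8, HOXB9 and HOXC13. None of the 8 HOXD genes did.

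**Figure D1:**
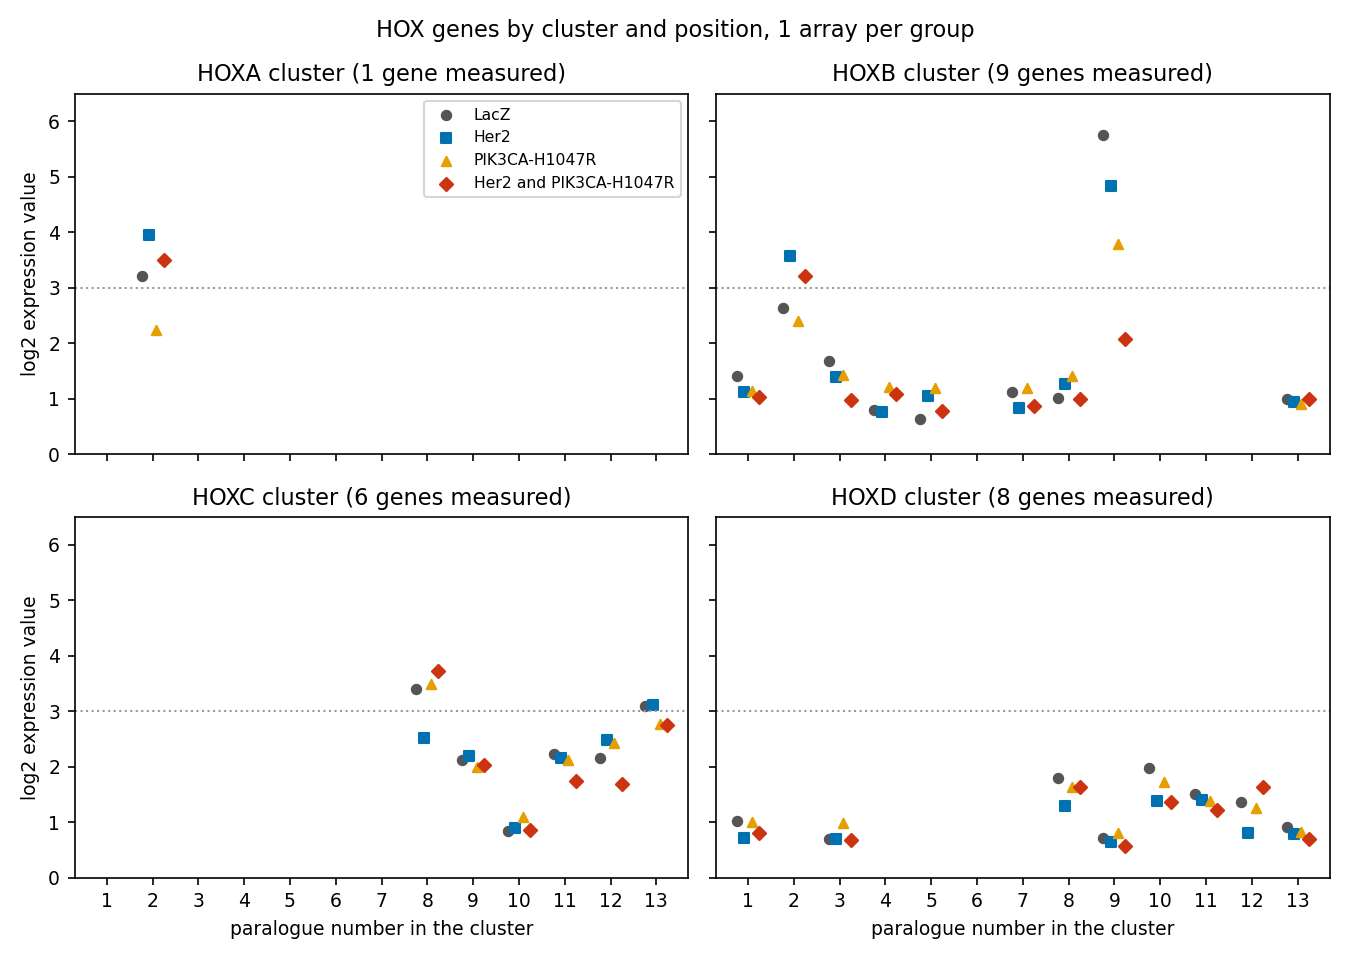
Log2 expression value (vertical axis) of the 24 measured HOX genes by cluster and paralogue number (horizontal axis), with 1 point per array and a dotted line at log2 3. HOXB9 spans 2.07 to 5.75 between arrays, whereas the 8 HOXD genes stay under the line on every array.

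HOXB9, a posterior gene of the HOXB cluster, showed the widest span of the 24 genes over the 4 arrays (3.68 log2 units). It read 5.75 on the LacZ array, 4.83 on the Her2-labelled array, 3.79 on the PIK3CA-H1047R-labelled array and 2.07 on the double-labelled array. It was thus lower on each of the 3 oncogene arrays than on the LacZ array, and below log2 3 on the double-labelled array alone. Against LacZ the differences were -0.92, -1.96 and -3.68. The last rests on a dim value on the double-labelled array, so its size, its rank and the departure from additivity given below are not exact. Among all 22395 genes ranked from the lowest difference upwards, HOXB9 stood at rank 11 in this last comparison. It stood at rank 28 for PIK3CA-H1047R against LacZ and at rank 533 for Her2 against LacZ.

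The second pair for each introduced gene gave HOXB9 the same direction. From the PIK3CA-H1047R-labelled array to the double-labelled array, which differ in the Her2 label, the difference was -1.72. From the Her2-labelled array to the double-labelled array, which differ in the PIK3CA-H1047R label, it was -2.76. The difference of the double-labelled array from LacZ was 0.80 log2 units below the sum of the single differences (a departure from additivity of -0.80). Departures of larger size were found for HOXC8 (1.13) and for HOXC12 (-1.04), HOXD12 (0.94) and HOXB5 (-0.83), the last 3 under log2 3 on every array. The departure of HOXB9 was thus not unusual among the HOX genes.

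Apart from HOXB2, the other measured genes of the cluster were under log2 3 on every array, LacZ included. In RefSeq order, HOXB8 precedes HOXB9, and the antisense gene HOXB-AS4, MIR196A1 and PRAC1 lie between HOXB9 and HOXB13. HOXB8 read 1.01, 1.26, 1.40 and 1.00 on the LacZ, Her2, PIK3CA-H1047R and double-labelled arrays in that order, and HOXB13 read 1.00, 0.94, 0.90 and 1.00. HOXB-AS4 read 1.87 on the LacZ array, 1.80 on the Her2-labelled array, 1.19 on the PIK3CA-H1047R-labelled array and 1.17 on the double-labelled array. It was lower where the PIK3CA-H1047R label was present, but by less than 2-fold and under log2 3 throughout. PRAC1, a small nuclear protein gene, stayed between 0.88 and 1.01.

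MIR196A1, next to HOXB9, encodes miR-196a, a microRNA known to target HOX transcripts such as HOXB8. The mature sequences of the miR-196 family (RefSeq, GRCh38.p14) are shown because this family is encoded inside 3 of the clusters, by MIR196A1 in HOXB, MIR196A2 in HOXC and MIR196B in HOXA. Capitals mark the seed, bases 2 to 8 from the 5′ end, which both forms share.
hsa-miR-196a-5p: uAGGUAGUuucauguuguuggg
hsa-miR-196b-5p: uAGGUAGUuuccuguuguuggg
The forms differ at 1 base, A12C, written from miR-196a to miR-196b and counted from the 5′ end. The probe set of MIR196A1 read between 0.54 and 0.97 on the 4 arrays and that of MIR196A2 between 0.63 and 1.20. An array of this kind is not made to measure mature microRNAs, so these values say little about miR-196 itself.

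HOXA2 and HOXB2, the anterior paralogues of group 2 that pattern the hindbrain and branchial arches of the embryo, were higher on both arrays that carry the Her2 label. HOXA2 read 3.21 on the LacZ array, 3.96 on the Her2-labelled array, 2.23 on the PIK3CA-H1047R-labelled array and 3.50 on the double-labelled array. HOXB2 read 2.64, 3.57, 2.41 and 3.22 in the same order. For each gene both arrays with the Her2 label read above both without it. HOXB2 reached log2 3 on these arrays alone, so it is described in full because of the arrays where it is high, and its likeness to HOXA2 is no support for a shared pattern.

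The first Her2 pair, Her2 against LacZ, gave HOXA2 a difference of 0.74 and HOXB2 one of 0.94. The second pair, both against PIK3CA-H1047R, gave 1.27 and 0.81. Only HOXA2 in the second pair passed 2-fold. On the PIK3CA-H1047R-labelled array, HOXA2 was below LacZ by just under 2-fold (-0.98), whereas HOXB2 differed by -0.23. Most of these differences were close in size to the widest spans among the 19 low genes, 0.84 for HOXD12 and 0.78 for HOXC12. A span runs from the lowest to the highest of the 4 arrays, so it is a wider measure than the difference of a single pair. Of the 2113 genes of the series with a highest value from log2 3 to under 4, as for HOXA2, HOXB2 and HOXC8, 36.7% spanned at least 2-fold over the 4 arrays. HOXA2 spanned 1.72 log2 units and HOXB2 1.16, beside a median span of 0.81 for those genes. That share takes no account of which arrays are high, so it does not measure how often a pattern like theirs occurs. Spans of 2-fold were common at this level, and without replicate arrays neither pattern was tested.

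**Figure D2:**
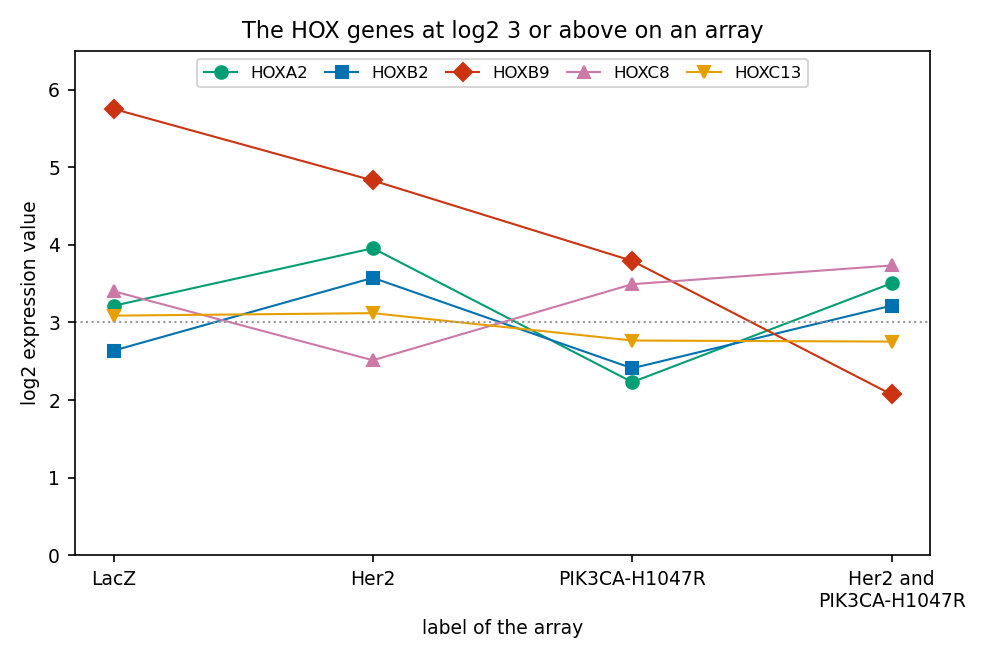
Log2 expression value (vertical axis) on the 4 arrays (horizontal axis, 1 array per label) for the 5 HOX genes at log2 3 or above on an array, with lines that only join the points of a gene. HOXB9 goes from 5.75 on the LacZ array to 2.07 on the double-labelled array, and HOXA2 and HOXB2 are highest on the Her2-labelled array.

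Of the 5 genes, HOXA2 alone has an entry in the RefSeq promoter table used here. The 250 bases before its start, chr7:27102684-27102933 on the minus strand of GRCh38.p14, are shown because group 2 genes are known to be regulated by PBX, MEIS and HOX proteins. Capitals mark matches, on either strand, to TGATNNAT (bound by PBX with HOX), TGACAG (bound by MEIS) and TAAT (the core bound by many homeodomains), and no 2 of these matches overlap.
HOXA2: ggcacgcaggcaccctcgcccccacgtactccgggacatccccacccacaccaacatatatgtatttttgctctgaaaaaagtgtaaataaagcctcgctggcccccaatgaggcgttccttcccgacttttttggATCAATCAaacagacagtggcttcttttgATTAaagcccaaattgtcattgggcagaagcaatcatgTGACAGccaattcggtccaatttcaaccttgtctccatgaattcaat
Each motif matched 1 time, with its first base 114, 85 and 47 bases before the start for TGATNNAT, TAAT and TGACAG. Among 35116 promoter entries of this length, 6.47% hold TGATNNAT, 13% hold TGACAG and 47.4% hold TAAT. The match is a description of these letters and was not tied to the values.

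HOXC8, a trunk gene in the middle of its cluster, was low on 1 array. It read 3.40 on the LacZ array, 2.51 on the Her2-labelled array, 3.49 on the PIK3CA-H1047R-labelled array and 3.73 on the double-labelled array. The Her2-labelled array was 0.89 log2 units below LacZ, and the double-labelled array was 1.22 above the Her2-labelled array. The second Her2 pair did not repeat the first, since both against PIK3CA-H1047R gave 0.24.

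HOXC13, the most posterior gene of its cluster and a regulator of hair keratins, differed least of the 5. It read 3.09, 3.12, 2.77 and 2.75 on the LacZ, Her2, PIK3CA-H1047R and double-labelled arrays. The widest difference between any 2 arrays was 0.37, and it reached log2 3 on the LacZ and Her2-labelled arrays alone. HOXC13-AS, the gene on its opposite strand, read 2.74, 2.44, 1.96 and 2.22 in that order.

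The other 19 members were HOXB1, HOXB3, HOXB4, HOXB5, HOXB7, HOXB8, HOXB13, HOXC9, HOXC10, HOXC11, HOXC12, HOXD1, HOXD3, HOXD8, HOXD9, HOXD10, HOXD11, HOXD12 and HOXD13. Their values ran from 0.57 to 2.48, with a median of 1.12 over all arrays. HOXC9, HOXC11 and HOXC12, posterior genes of the HOXC cluster, were the members of this set above log2 2 on an array. HOXC9 was steady, from 2.00 to 2.20, while HOXC11 and HOXC12 were lowest on the double-labelled array, at 1.75 and 1.70. Of the 19, 0 spanned 2-fold over the arrays, as did 6.83% of the 13842 genes of the series under log2 3 on every array, so the count is near that share. Their median span was 0.38 log2 units, against 0.43 for those genes. HOXB7, a gene linked to growth of breast cells, read between 0.84 and 1.20.

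Among the dim HOXD genes, HOXD10 read 1.97 on the LacZ array, 1.38 on the Her2-labelled array, 1.73 on the PIK3CA-H1047R-labelled array and 1.37 on the double-labelled array. HOXD8 ran from 1.30 on the Her2-labelled array to 1.80 on the LacZ array. HOXD12 was lowest on the Her2-labelled array (0.81) and highest on the double-labelled array (1.64).

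Counted over all 24 members, few HOX genes differed 2-fold in any comparison. Her2 against LacZ had 0 higher and 0 lower, where 1.92% of all genes were at least 2-fold higher and 1.75% lower. PIK3CA-H1047R against LacZ had 0 higher and 1 lower, HOXB9, where the shares of all genes were 2.71% and 1.91%. Both against LacZ had 0 higher and 1 lower, again HOXB9, beside 6.3% and 4.27%.

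Both against PIK3CA-H1047R had 1 higher, HOXA2, and 1 lower, HOXB9, beside 5.09% and 3.46%. Both against Her2 had 1 higher, HOXC8, and 1 lower, HOXB9, beside 4.38% and 2.63%. Set against 24 genes, each of these counts is near the share over all genes, and with 1 array a group the counts carry no test. The comparisons share arrays with each other, so the repeated call of HOXB9 is not independent.

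**Figure D3:**
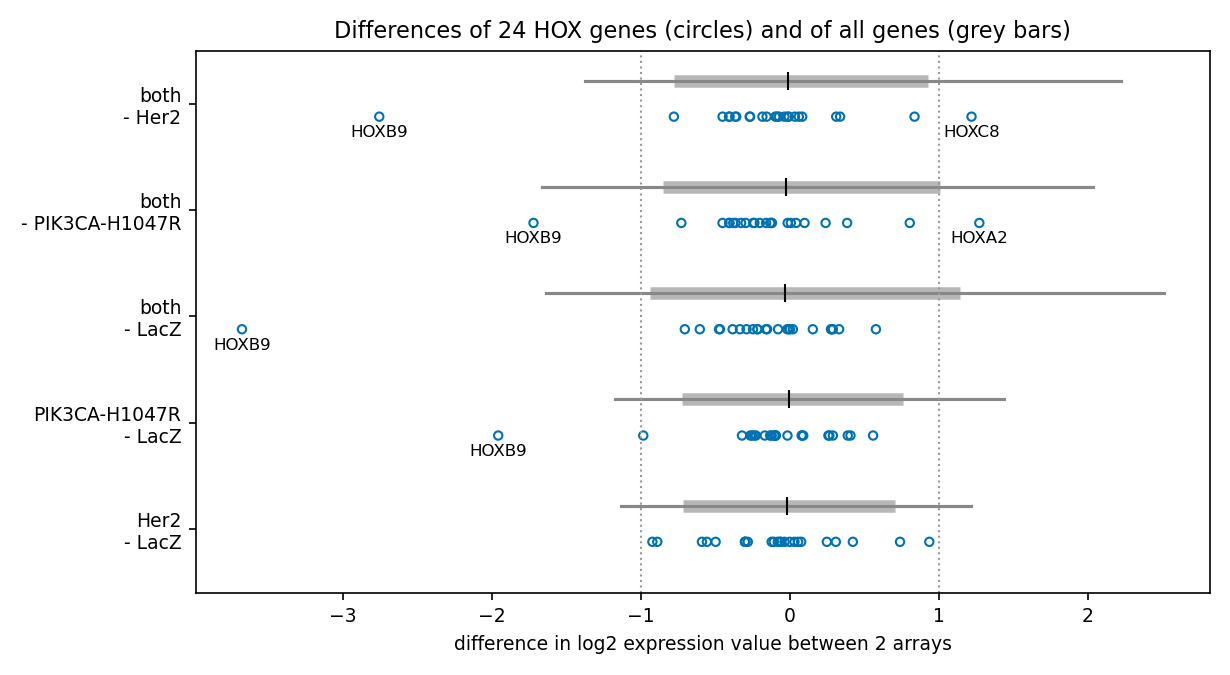
Difference in log2 expression value between 2 arrays (horizontal axis) in the 5 comparisons (vertical axis), with a circle per HOX gene; the thick grey bar spans the 5th to 95th percentile of all 22395 genes, the thin bar the 1st to 99th and the tick the median, and dotted lines mark 2-fold. HOXB9 lies beyond the 1st percentile in 4 comparisons and other HOX genes mostly lie within the thick bars.

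The medians of the 24 differences were slightly below 0 in all 5 comparisons. They were -0.07 for Her2 against LacZ, -0.10 for PIK3CA-H1047R against LacZ and -0.16 for both against LacZ, where the medians over all genes were -0.02, 0.00 and -0.03. For both against PIK3CA-H1047R and both against Her2 they were -0.18 and -0.09, where all genes had -0.03 and -0.01. In the comparison of both with LacZ, 16 of 24 HOX genes were lower by any amount, as were 53.4% of all genes.

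Marker genes moved with these arrays. The summed level of 12 measured luminal epithelial markers (log2 of the summed unlogged values) was 10.4 on the LacZ array, 9.75 on the Her2-labelled array, 10.1 on the PIK3CA-H1047R-labelled array and 8.07 on the double-labelled array. On the double-labelled array, where HOXB9 was lowest, 6 of the 12 were at least 2-fold below LacZ. Of all genes 4.27% were, and of those at log2 3 or above on an array 9.6%. The 6 luminal markers included E-cadherin, CDH1, at 9.34 on the LacZ array and 5.07 on the double-labelled array. A sum of unlogged values follows its brightest genes, CDH1 among them. The remaining luminal markers, KRT8, KRT18, KRT19, ESR1, FOXA1 and GATA3, differed from LacZ by -0.71 to 0.04 on the double-labelled array. Of these, KRT18, KRT19, ESR1 and FOXA1 were under log2 3 on every array. The summed level of 8 measured basal markers was 11.4, 11.1, 12.3 and 10.7 on the LacZ, Her2, PIK3CA-H1047R and double-labelled arrays. Of these 8, 3 were at least 2-fold higher in PIK3CA-H1047R against LacZ, beside 2.71% of all genes. In both against LacZ, 1 was higher and 3 were lower, beside 6.3% and 4.27%. Among genes at log2 3 or above on an array, as all 8 are, these shares were 5.89%, 14.1% and 9.6%. CD68, a lysosomal protein gene listed among the leukocyte markers, read 4.68, 4.94, 6.24 and 6.78.

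The summed level of 11 measured fibroblast markers was 6.12, 8.88, 6.24 and 8.73 in the same order of arrays, and was thus higher on both arrays where HOXA2 and HOXB2 were higher. A few genes carried these sums, since the median difference of the 11 was -0.02 for Her2 against LacZ and -0.03 for both against LacZ. DPT, the matrix protein dermatopontin, went from 3.41 on the LacZ array to 8.38 and 7.86 on these arrays, and LUM (lumican) and DCN (decorin) were above log2 3 on the double-labelled array alone, at 6.26 and 5.06. TWIST1 read 4.02, 5.84, 3.99 and 5.22 on the LacZ, Her2, PIK3CA-H1047R and double-labelled arrays, and FAP 4.34, 5.92, 4.71 and 4.86. Of the 11, 3 were at least 2-fold higher and 0 lower in Her2 against LacZ, beside 1.92% and 1.75% of all genes. In both against LacZ, 4 were higher and 0 lower, beside 6.3% and 4.27%. Among genes at log2 3 or above on an array, as 5 of the 11 are, the shares higher were 3.74% and 14.1%. The defining fibroblast collagens COL1A1 and COL1A2 stayed low, from 1.79 to 2.24 and from 0.73 to 0.87. The part of these marker genes in the HOX values was not tested, and fewer cells with a transcript and less RNA per cell cannot be told apart here.

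HOX proteins act with cofactors of the TALE homeobox class. Of 9 listed cofactors 7 were measured, and 0 of them differed 2-fold in any of the 5 comparisons, where 1.75% to 6.3% of all genes did in a direction. With so few genes, 0 is near those shares. PKNOX1 alone reached log2 3 and read 4.67, 4.73, 4.58 and 4.41 on the LacZ, Her2, PIK3CA-H1047R and double-labelled arrays. MEIS2, a DNA-binding partner of HOX proteins, read 1.27 on the LacZ array and between 1.85 and 2.12 on the others.

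Polycomb repressive complex 2 (PRC2) places the silencing mark on histone H3 at HOX clusters. Of 10 measured members, 2 were at least 2-fold higher and 0 lower in both against LacZ. The shares were 6.3% and 4.27% of all genes, and 14.1% and 9.6% of those at log2 3 or above on an array, as all 10 are. EZH2, the methyltransferase of the complex, read 4.18 on the LacZ array, 3.95 on the Her2-labelled array, 5.20 on the PIK3CA-H1047R-labelled array and 6.36 on the double-labelled array. PHF19, an accessory subunit, read 2.93, 2.47, 3.20 and 4.51. Both genes were highest on the array where HOXB9 was lowest, and lowest on the Her2-labelled array. JARID2, a subunit that guides the complex to its targets, went the other way, with 5.88, 6.44, 6.19 and 4.91. RBBP7, a histone-binding subunit, was higher by 1.32 in both against Her2. The median difference of the 10 members in both against LacZ was 0.79, beside -0.03 over all genes. Of all genes 61.8% were under log2 3 on every array, and a median over genes at the level of the PRC2 members was not computed. A link between the HOX values and the PRC2 genes, or the other chromatin genes described below, was not tested.

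Some forms of Polycomb repressive complex 1 (PRC1) bind the mark placed by PRC2. Of 13 measured members, 1 was higher and 2 lower in PIK3CA-H1047R against LacZ, and 0 higher and 1 lower in both against LacZ. Of all genes, 2.71% were higher and 1.91% lower in the former comparison, and 6.3% and 4.27% in the latter. Among genes at log2 3 or above on an array, as 10 of the 13 are, these shares were 5.89%, 4.19%, 14.1% and 9.6%. PHC1, a scaffold subunit, was lower in both comparisons and read 5.22, 4.78, 3.69 and 4.21 on the LacZ, Her2, PIK3CA-H1047R and double-labelled arrays. PCGF2, a RING-finger subunit, was 5.51 on the LacZ array and 4.45 on the PIK3CA-H1047R-labelled array, and its relative PCGF5 was 4.78 and 5.88 there. CBX6, which reads the histone mark, was 2.88 on the PIK3CA-H1047R-labelled array and 3.89 on the double-labelled array.

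Of 14 measured genes of trithorax-group complexes and of the enzymes that remove the PRC2 mark, 1 was higher and 4 were lower in both against LacZ. The shares were 6.3% and 4.27% of all genes, and 14.1% and 9.6% of those at log2 3 or above on an array, as all 14 are. PSIP1, which tethers the MLL methyltransferase to chromatin, read 4.58 on the LacZ array and 6.68 on the double-labelled array. The methyltransferase gene KMT2D read 5.18 and 3.72 on these arrays, and KDM6B, a demethylase that removes the PRC2 mark, read 4.69 and 3.29. MEN1 (menin), an MLL cofactor needed for HOX expression in blood cells, read 5.71 and 4.65, and the methyltransferase gene KMT2B read 4.61 and 3.58. KMT2A, the MLL methyltransferase itself, stayed between 5.59 and 5.94. In Her2 against LacZ, 0 of these 14 and 0 of the 10 PRC2 and 13 PRC1 genes differed 2-fold. In that comparison 1.92% of all genes were higher and 1.75% lower, and 3.74% and 3.23% of those at log2 3 or above on an array. With so few genes, counts of 0 are not far from those shares.

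**Figure D4:**
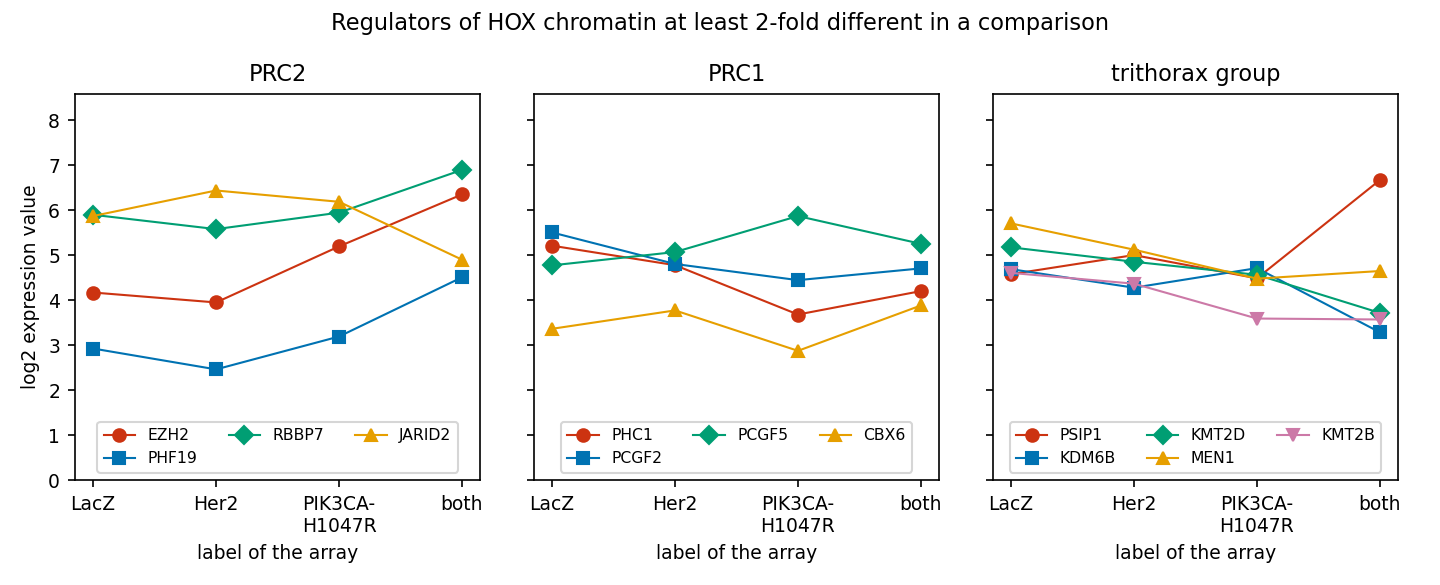
Log2 expression value (vertical axis) on the 4 arrays (horizontal axis, 1 array per label) of PRC2, PRC1 and trithorax-group genes that differed 2-fold in a comparison, with lines that only join the points of a gene. EZH2 goes from 4.18 on the LacZ array to 6.36 on the double-labelled array, while KMT2D goes from 5.18 to 3.72.

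Of 13 measured upstream regulators of HOX clusters, 0 differed 2-fold in either single-gene array against LacZ, where 1.75% to 2.71% of all genes did in a direction. The retinoic acid receptor gene RARG, under log2 3 on every array, was lower in both against LacZ and in both against Her2. In these comparisons 4.27% and 2.63% of all genes were lower. CTCF, which binds boundaries within the clusters, read 7.42, 7.37, 7.29 and 6.83 on the LacZ, Her2, PIK3CA-H1047R and double-labelled arrays. GDF11, a ligand that promotes posterior HOX expression in the embryo, read 2.55, 2.26, 1.78 and 3.41, and was the 1 regulator at least 2-fold higher in both against each single-gene array. Of all genes, 5.09% were higher in both against PIK3CA-H1047R and 4.38% in both against Her2. With 13 regulators, 1 in a direction is near these shares.

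None of the 16 measured non-coding RNAs of the clusters reached log2 3 on any array, HOTAIR (0.69 to 0.98) and HOTTIP (0.65 to 0.98) included. Of 15 measured protein-coding genes beside the clusters, 2 were at least 2-fold higher and 0 lower in both against LacZ, beside 6.3% and 4.27% of all genes. LNPK, an endoplasmic reticulum protein gene beside the HOXD cluster, read 4.60, 5.40, 5.63 and 6.33, although no HOXD gene reached log2 3. CBX5, a heterochromatin protein gene beside the HOXC cluster, read 4.26, 4.86, 4.67 and 5.64.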

How the data were processed

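Per the submitters' processing notes, the authors made the deposited log2 expression values with the RMA method of oligo (background subtraction, normalization between arrays, 1 value per probe set). Tool versions: not given in the sources used here. RMA and the range of the values give the log base. Biotin-labelled cDNA was made from 400 ng of total RNA, per the labels' protocols. Of 53617 probe sets, 23871 have 1 gene symbol, 1842 several, and 27904 have none in the annotation used here; RefSeq gene identifiers replaced 90 old symbols. A gene with several probe sets took the one with the highest mean (each HOX gene had 1). Differences between arrays were counted at 2-fold, with no test because each group is 1 array, and the counting was tested on simulated data. The number of arrays limits the precision. Alternatives were quantile and cyclic loess normalization (limma 3.58.1 in R 4.3.3, 3 iterations), the mean of probe sets, a filter at log2 3 and a 1.5-fold threshold. The protein-coding background was added after seeing the data. All HOX genes with their own probe set were accounted for, with values in full at log2 3 or above; list members were named by rule at log2 3 and 2-fold (at most 4 a list, the largest differences), and further list members and markers after their values were seen. The members and lists were chosen with earlier results of these data known.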

Additional observations from a re-analysis of the deposited data

Results flagged for a closer look

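HOXC8 drew attention because its Her2 difference ran in opposite directions in the 2 pairs of arrays that differ in this label. It was -0.89 for Her2 against LacZ and 0.24 for both against PIK3CA-H1047R. HOXC13 also changed sign, from 0.032 to -0.014, at a size close to 0. The difference between the pairs was not tested for either gene.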

How the results depend on the processing

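With the 1.5-fold threshold the counts were 2 higher and 3 lower for Her2 against LacZ, 2 lower for PIK3CA-H1047R against LacZ, 3 lower for both against LacZ, and 2 higher and 2 lower for each of both against PIK3CA-H1047R and both against Her2, where 7.48% to 13% of all genes passed it in a direction; a looser threshold counts more genes by construction. The counts at 2-fold were the same after quantile and cyclic loess normalization. They were also the same with the mean of probe sets and with the filter at log2 3, but neither of these settings could change them. Each HOX gene has 1 probe set, and the genes that the filter removes span at most 0.84 log2 units. The 5 genes at log2 3 or above kept their side of 2-fold in all 30 differences and departures under each normalization; quantile normalization moved them by up to 0.16 and turned 1 direction (HOXC13 in Her2 against LacZ, from 0.03 to -0.05). With limits of log2 2 and log2 4 in place of log2 3, 16 and 23 HOX genes lay under the limit on every array, against 19. No paired analysis was possible because each group is 1 array. Most of the measured HOX genes lie low on the scale, so small differences there do not show equal levels.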

Other observations

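Outside the clusters, 37 of 43 listed homeobox genes were measured. In both against LacZ 1 was at least 2-fold higher and 1 lower, beside 6.3% and 4.27% of all genes. ZEB1, a repressor of epithelial genes, read 1.08 on the LacZ array, 1.97 on the Her2-labelled array, 1.76 on the PIK3CA-H1047R-labelled array and 3.36 on the double-labelled array. CUX1, a broadly expressed homeobox gene, read 6.07, 5.72, 5.64 and 4.95. The Iroquois genes IRX1 to IRX5, which pattern epithelia and other tissues, were at log2 3 or above on an array. Of these 5, 0 differed 2-fold in the 5 comparisons, where 3.23% to 14.1% of genes at that level did in a direction. With 5 genes, 0 is not far from those shares. IRX4, for example, read 4.57, 4.05, 4.60 and 4.19.

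Probe sets that name several HOX genes were low as well. The one shared by HOXC4, HOXC5 and HOXC6 read from 2.45 to 2.62, the 2 shared by HOXD3 and HOXD4 from 1.58 to 2.10 and from 0.87 to 1.16, and the one shared by HOXB3 and HOXB6 from 0.70 to 0.99. The probe set of HOXA10-AS and MIR196B read 2.95, 2.80, 3.26 and 2.74 on the LacZ, Her2, PIK3CA-H1047R and double-labelled arrays.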
